A study of Mus musculus with 31 samples.

Results

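The complement genes C3, C4b, Cfb, Serping1, Cd55, Cd59a and Clu were followed in ependymal cells of the mouse spinal cord. The 7 genes were chosen by name, and all 7 were among the 16301 genes of the bulk RNA table and the 27998 genes of the single-cell RNA matrix. Their chromatin was read from 14 of the 96670 single-cell ATAC peaks, those within 2 kb of a gene. Ependymal cells line the central canal, carry motile cilia and divide after spinal cord injury.

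Complement is a cascade of plasma and locally made proteins that tags cells and debris and can open pores in membranes. C4b belongs to the classical and lectin routes, Cfb to the alternative route, and both routes meet at cleavage of C3. Serping1 encodes the C1 inhibitor, which blocks the proteases that start the classical and lectin routes. Cd55 is a membrane protein that speeds the decay of the convertases, Cd59a blocks assembly of the membrane attack complex, and Clu encodes clusterin, a secreted chaperone that binds terminal complement complexes. In the nervous system C3 is widely used as a marker of reactive astrocytes, and microglia are a main source of C1q.

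All mice had a C57BL/6 background, and ages were not among the labels. The bulk groups came from 2 genotypes named Foxj1-tdT and Foxj1-Olig2-tdT. In this study recombination in Foxj1-expressing cells switches on the tdTomato reporter and, in the second genotype, also Olig2, which specifies oligodendrocyte fate, so both genotypes carry the Foxj1 driver and the reporter. Ependymal cells were sorted by flow cytometry from uninjured cords and at 1 and 5 days post injury (dpi), with 2 Smart-seq2 libraries in each of 6 groups. There were also 6 single-cell RNA samples (uninjured, 2 weeks and 4 weeks post injury in both genotypes) and 1 single-cell ATAC sample of non-neuronal cells from uninjured cord, while 12 bulk ATAC samples were not analysed here. Whether the libraries of a group are from different animals is not given in the labels, and the spread behind each p-value may therefore be technical.

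Library sums of the normalised counts ran from 12601290 to 13878102, and the read depth behind them is unknown. Olig2 stood at 1690.3 to 3960.9 in the 6 Foxj1-Olig2-tdT libraries and at 2.2 to 17.4 in 5 of the 6 Foxj1-tdT libraries, with 195.2 in replicate 2 of Foxj1-tdT at 5 dpi. The 12 ependymal markers together held 0.923% to 1.12% of the sum in uninjured libraries and 0.0698% to 0.605% after injury. The uninjured Foxj1-tdT libraries resembled each other more than any other replicate pair (Pearson r of 0.989 across genes, against 0.864 to 0.928), and calls on the 7 genes that are lost when they are counted as 1 library are marked. Where a fit leaves out a library, the group left with 1 is assumed to vary like the others. With 2 libraries a group, the values of 46.5% to 72.7% of all genes tested did not overlap between an injured group and its uninjured group, so separation alone is common.

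RefSeq promoter sequences (build GRCm38.p6, 250 bases before to 50 bases after the gene start) were found for 3 of the 7 genes and are shown for these. All 3 sequences overlapped an accessible peak described with the chromatin data. They are written 5′ to 3′ on the strand of the gene, and capitals mark a match to any of 7 searched motifs. C3 lies on the minus strand and its promoter at chr17:57228087-57228386, Cd55 on the minus strand at chr1:130462695-130462994, and Cd59a on the plus strand at chr2:104095551-104095850. The Cd55 start used there lies inside the annotated gene, chr1:130429798-130465009. The other genes lie at chr17:34728139-34743902 (C4b), chr17:34856374-34862514 (Cfb), chr2:84765360-84775444 (Serping1) and chr14:65968483-65981548 (Clu).
C3: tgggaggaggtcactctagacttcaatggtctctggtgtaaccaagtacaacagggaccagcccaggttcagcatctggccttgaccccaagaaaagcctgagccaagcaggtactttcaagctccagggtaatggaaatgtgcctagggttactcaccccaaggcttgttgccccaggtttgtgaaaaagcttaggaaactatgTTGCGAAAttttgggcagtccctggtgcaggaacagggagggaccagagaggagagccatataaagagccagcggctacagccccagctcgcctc
Cd55: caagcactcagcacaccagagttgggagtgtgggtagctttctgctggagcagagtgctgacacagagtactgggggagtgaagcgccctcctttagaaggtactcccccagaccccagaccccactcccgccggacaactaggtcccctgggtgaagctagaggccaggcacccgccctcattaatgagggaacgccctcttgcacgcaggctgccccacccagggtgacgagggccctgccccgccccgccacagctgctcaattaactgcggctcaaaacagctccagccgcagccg
Cd59a: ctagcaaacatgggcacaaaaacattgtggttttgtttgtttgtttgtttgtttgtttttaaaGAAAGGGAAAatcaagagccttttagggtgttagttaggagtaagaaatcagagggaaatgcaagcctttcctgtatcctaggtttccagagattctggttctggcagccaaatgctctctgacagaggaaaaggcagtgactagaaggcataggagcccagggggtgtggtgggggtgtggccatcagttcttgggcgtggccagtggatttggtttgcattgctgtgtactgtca
The capitals in C3 are a match to the C/EBP motif TTGCNNAA, from position -45 to -38 relative to the gene start, and 10.8% of 32851 RefSeq promoters held this motif on either strand. Those in Cd59a are a match to the interferon response motif ISRE, from -187 to -178, which 3.44% of promoters held. No match was found in Cd55, nor anywhere in the 3 promoters for GTTGCCA (RFX half-site, in 4.38% of promoters), GTAAACA (forkhead, 3.65%), NF-kB (1.2%), TTCNNNGAA (STAT, 8.3%) or TGANTCA (AP-1, 7.81%). A match is a description of the letters and not a binding site.

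C3, the protein on which all complement routes converge, was near 0 before injury and high after it in both genotypes. Its normalised count was listed at 0 in both uninjured Foxj1-tdT libraries; the 1 dpi pair had 976.5 and 119.2, the 5 dpi pair 273.8 and 818.8. Foxj1-Olig2-tdT started at 1.4 and 0.7, reached 1093.8 and 771.4 by 1 dpi, and stood at 154.6 and 142 by 5 dpi. Every injured library was above every uninjured one. C3 was called higher in Foxj1-tdT at 1 dpi (adjusted p = 0.000255) and 5 dpi (adjusted p = 0.000279), where no fold is given against libraries at 0. In Foxj1-Olig2-tdT it rose by 8.83 ± 0.95 (SE) at 1 dpi (adjusted p = 0.000517) and by 6.21 ± 0.95 at 5 dpi (adjusted p = 0.00084), both as log2 fold changes on the log2(value + 1) scale, which understates changes of genes near 0. The lower 5 dpi level of Foxj1-Olig2-tdT against its own 1 dpi level, -2.62 ± 0.95, missed the threshold (adjusted p = 0.103).

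C4b, the central component of the classical and lectin routes, rose at 1 dpi in both genotypes and at 5 dpi in Foxj1-tdT. Its near-identical copy C4a has no row in the bulk table or the single-cell matrix, so reads of C4a may stand under C4b. C4b was 77.3 and 70.2 in uninjured Foxj1-tdT cells; the 1 dpi pair had 1036.3 and 767.6, the 5 dpi pair 1471.6 and 2380.2. The Foxj1-Olig2-tdT libraries held 29.7 and 293.9 before injury, then 1475 and 843.8, then 778.4 and 270.5, and the higher uninjured value lay within the range of the 5 dpi pair. The rise in Foxj1-tdT was 3.58 ± 0.88 log2 units at 1 dpi (adjusted p = 0.014) and 4.65 ± 0.88 at 5 dpi (adjusted p = 0.00475). The Foxj1-Olig2-tdT rise was 3.55 ± 0.88 at 1 dpi (adjusted p = 0.036), and the 5 dpi value of 2.27 ± 0.88 missed the threshold (adjusted p = 0.0758). Both 1 dpi calls were lost when the uninjured Foxj1-tdT pair was counted as 1 library, and also in 4 of the 12 fits that left out a library for Foxj1-tdT and 9 of 12 for Foxj1-Olig2-tdT. The Foxj1-Olig2-tdT values rested on the 2 unlike uninjured libraries: without replicate 1 of them the rise was 1.92 at 1 dpi (adjusted p = 0.102) and 0.64 at 5 dpi (adjusted p = 0.488), and without replicate 2 it was 5.18 (adjusted p = 0.000978) and 3.91 (adjusted p = 0.0015).

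Cfb, the protease of the alternative route, did not follow C3 and C4b and passed the threshold in none of the 11 comparisons. It was 155.7 and 102.3 in uninjured Foxj1-tdT cells; the 1 dpi pair had 24.1 and 7, the 5 dpi pair 16.7 and 41.9. For Foxj1-Olig2-tdT the values were 0 and 35.4 uninjured, then 72.5 and 63.2, then 21.7 and 0. The Foxj1-tdT values were lower after injury without overlap (-3.17 ± 1.76 at 1 dpi, adjusted p = 0.211), while those of Foxj1-Olig2-tdT were highest at 1 dpi (3.51 ± 1.76, adjusted p = 0.266).

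Serping1, the soluble brake on the first proteases, rose in both genotypes and at both times. Uninjured Foxj1-tdT cells had 195.2 and 198.5; the 1 dpi pair had 2513.9 and 1555.7, the 5 dpi pair 2779.5 and 1621.5. Uninjured Foxj1-Olig2-tdT cells had 124.7 and 75.6, followed over the same times by 1290.5 and 1923.5 and by 1114.9 and 2572.3. The lowest injured library, 1114.9, was above the highest uninjured one, 198.5. The log2 rises were 3.32 ± 0.45 and 3.42 ± 0.45 in Foxj1-tdT (adjusted p = 0.000628 and 0.000766) and 4.01 ± 0.45 and 4.11 ± 0.45 in Foxj1-Olig2-tdT (adjusted p = 0.000596 and 0.000103), at 1 and 5 dpi in turn. No difference from 1 to 5 dpi was called in either genotype (0.10 ± 0.45 in both).

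Clu had the opposite course. Foxj1-tdT cells had 87360.7 and 86330.9 before injury; the 1 dpi pair had 48940.5 and 34430.9, the 5 dpi pair 37053.5 and 39614. The course in Foxj1-Olig2-tdT began at 95800.4 and 82937.4, went on to 57385.8 and 52688.4, and ended at 19363.5 and 12972.3, the lowest pair of all 6 groups. Clu fell by 1.08 ± 0.20 and 1.18 ± 0.20 log2 units in Foxj1-tdT at 1 and 5 dpi (adjusted p = 0.00317 and 0.00249) and by 2.49 ± 0.20 in Foxj1-Olig2-tdT at 5 dpi (adjusted p = 1.372e-05). At 1 dpi the Foxj1-Olig2-tdT change of -0.70 ± 0.20 missed the threshold (adjusted p = 0.0581). In a bulk library fewer cells of a type and less RNA per cell cannot be told apart: the 12 ependymal markers fell in the same libraries, from at least 0.923% of the sum before injury to 0.0936% and 0.0698% in Foxj1-Olig2-tdT at 5 dpi, and their part in the change of Clu was not tested.

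Cd55 and Cd59a, the membrane-bound inhibitors, were not called after injury in Foxj1-tdT and were low in Foxj1-Olig2-tdT at 5 dpi. Cd55 was 2307.4 to 3672.7 over the 6 Foxj1-tdT libraries. Its Foxj1-Olig2-tdT values were 3830 and 3265.5 before injury; the 1 dpi pair had 4165 and 4245.8, the 5 dpi pair 1272.9 and 1583.1. It fell by 1.32 ± 0.18 log2 units from uninjured to 5 dpi (adjusted p = 0.000403) and by 1.57 ± 0.18 from 1 to 5 dpi (adjusted p = 0.000384), and the 5 dpi pair was below every other library. Cd59a was 356 to 1255.6 over the Foxj1-tdT libraries. Its Foxj1-Olig2-tdT values were 997 and 308 before injury, then 770.2 and 881.2, then 210.9 and 222.9. Its fall from 1 to 5 dpi was -1.92 ± 0.56 (adjusted p = 0.0465). It missed the threshold with the uninjured Foxj1-tdT libraries counted as 1, and in 8 of the 12 fits that left out a library, where its adjusted p reached 0.179. The change from uninjured to 5 dpi was -1.35 ± 0.56 (adjusted p = 0.0934), and without Foxj1-Olig2-tdT uninjured replicate 2 it was -2.20 (adjusted p = 0.0111). Reads of the copies Cd55b and Cd59b, which have rows of their own, may be split between copies. The ependymal markers were also low in the Foxj1-Olig2-tdT libraries at 5 dpi, and their part in the lower Cd55 and Cd59a was not tested.

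**Figure D1:**
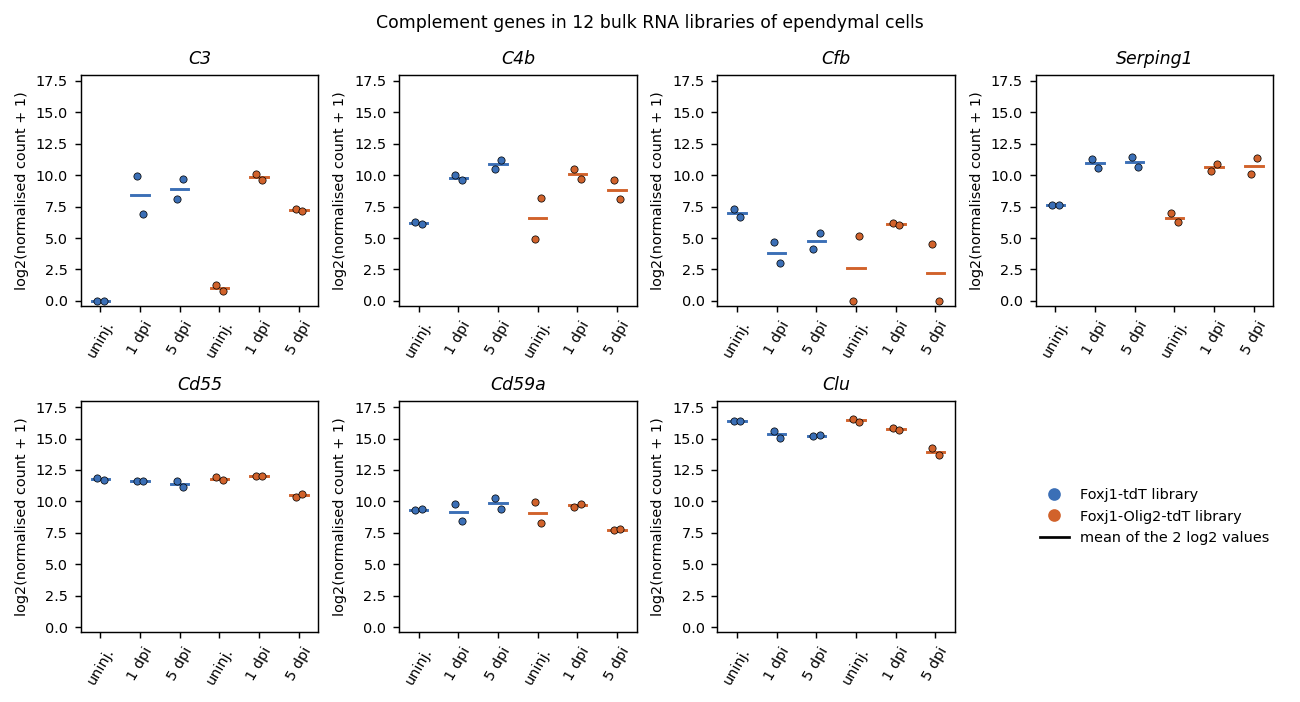
The y axis is log2(normalised count + 1) for each of the 7 genes, the x axis the 6 groups of 2 bulk RNA libraries, points are libraries and lines the mean of the log2 values. C3, C4b and Serping1 are higher after injury, Clu lower, and Cd55, Cd59a and Clu are lowest in Foxj1-Olig2-tdT at 5 dpi.

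Counted over the 7 genes, 3 rose and 1 fell in Foxj1-tdT at 1 dpi, where 27.4% of all genes tested were called (15.4% higher, 12% lower). At 5 dpi the same counts were reached, against 23% of all genes (13.8% higher, 9.21% lower). In Foxj1-Olig2-tdT 3 rose and none fell at 1 dpi, where 8.09% of all genes were called (5.93% higher, 2.16% lower), and 2 rose and 2 fell at 5 dpi, against 31.2% (17.2% higher, 14% lower). From 1 to 5 dpi none was called in Foxj1-tdT, against 5.85% of all genes (2.74% higher, 3.11% lower). In Foxj1-Olig2-tdT Cd55, Cd59a and Clu fell and none rose, against 13.9% of all genes (5.95% higher, 7.93% lower). At an unadjusted p under 0.05 the Foxj1-tdT count from 1 to 5 dpi was also 0.

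Foxj1-Olig2-tdT and Foxj1-tdT were then compared at each time. Among uninjured libraries none of the 7 differed at the threshold, against 7.79% of all genes (4.72% higher, 3.07% lower), and 2 had an unadjusted p under 0.05: Cfb (-4.40 ± 1.76) and Serping1 (-1.01 ± 0.45). At 1 dpi none differed, against 1.84% of all genes (1.29% higher, 0.55% lower), with Cd55 alone under an unadjusted 0.05 (0.40 ± 0.18). At 5 dpi 3 were lower in Foxj1-Olig2-tdT and none higher, against 9.23% of all genes (3.36% higher, 5.88% lower). These were Clu (-1.27 ± 0.20, adjusted p = 0.00355), Cd55 (-0.92 ± 0.18, adjusted p = 0.0121) and Cd59a (-2.10 ± 0.56, adjusted p = 0.044). C4b had an unadjusted p under 0.05 as well (-2.03 ± 0.88, adjusted p = 0.191) and was called without either uninjured Foxj1-Olig2-tdT library (adjusted p = 0.0317 and 0.0334). The Cd55 call was lost without replicate 1 of either 5 dpi group (adjusted p up to 0.0799). The Cd59a call was lost when that uninjured Foxj1-tdT pair was merged, and in 8 of the 12 fits that left out a library. In the same Foxj1-Olig2-tdT libraries the 8 cycling cell markers held 0.112% and 0.234% of the sum, against 0.0482% or less in the other 10, and the fibroblast list 0.0713% and 0.0652%, against 0.0513% and 0.0351% in Foxj1-tdT at 5 dpi. Its members differed: Col1a1 was 2467.9 and 2583.2 against 841.9 and 673, Col1a2 5696.9 and 5699.8 against 5437.8 and 3700.7, and Dcn 1.2 and 0 against 107.5 and 34.6. The 12 ependymal markers held 0.0936% and 0.0698% of the sum in Foxj1-Olig2-tdT at 5 dpi, against 0.249% and 0.284% in Foxj1-tdT at 5 dpi. The part of these marker differences in the 3 lower genes was not tested.

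The test of the difference between genotypes in the response to injury called none of the 7 at 1 dpi, against 2.77% of all genes (0.923% higher, 1.85% lower). At 5 dpi it called 1, against 7.28% (2.64% higher, 4.64% lower). Cfb alone was under an unadjusted 0.05 at 1 dpi (6.68 ± 2.49, adjusted p = 0.187). At 5 dpi the fall of Clu was larger in Foxj1-Olig2-tdT by 1.31 ± 0.28 log2 units (adjusted p = 0.0219). That call ended when the uninjured Foxj1-tdT pair was merged, under quantile normalisation, and without either uninjured Foxj1-tdT library, Foxj1-tdT 5 dpi replicate 2, Foxj1-Olig2-tdT uninjured replicate 1 or Foxj1-Olig2-tdT 5 dpi replicate 2, with adjusted p-values up to 0.106. The value for Cd55 was -0.92 ± 0.25 (adjusted p = 0.0564), and it was called under quantile normalisation (-0.95, adjusted p = 0.0356) and without Foxj1-tdT 5 dpi replicate 2 or Foxj1-Olig2-tdT uninjured replicate 2. Cd59a had an unadjusted p under 0.05 at 5 dpi (-1.86 ± 0.79, adjusted p = 0.187). Without Foxj1-Olig2-tdT uninjured replicate 2 the Cd59a value was -2.70. Further values were, for C4b -2.38 ± 1.24 (adjusted p = 0.282) and for C3 -2.68 ± 1.34 (adjusted p = 0.261). The C3 value depends on the pseudocount, since C3 was listed at 0 in both uninjured Foxj1-tdT libraries. Without Foxj1-Olig2-tdT uninjured replicate 1 the C4b value was -4.01 (adjusted p = 0.0209).

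**Figure D2:**
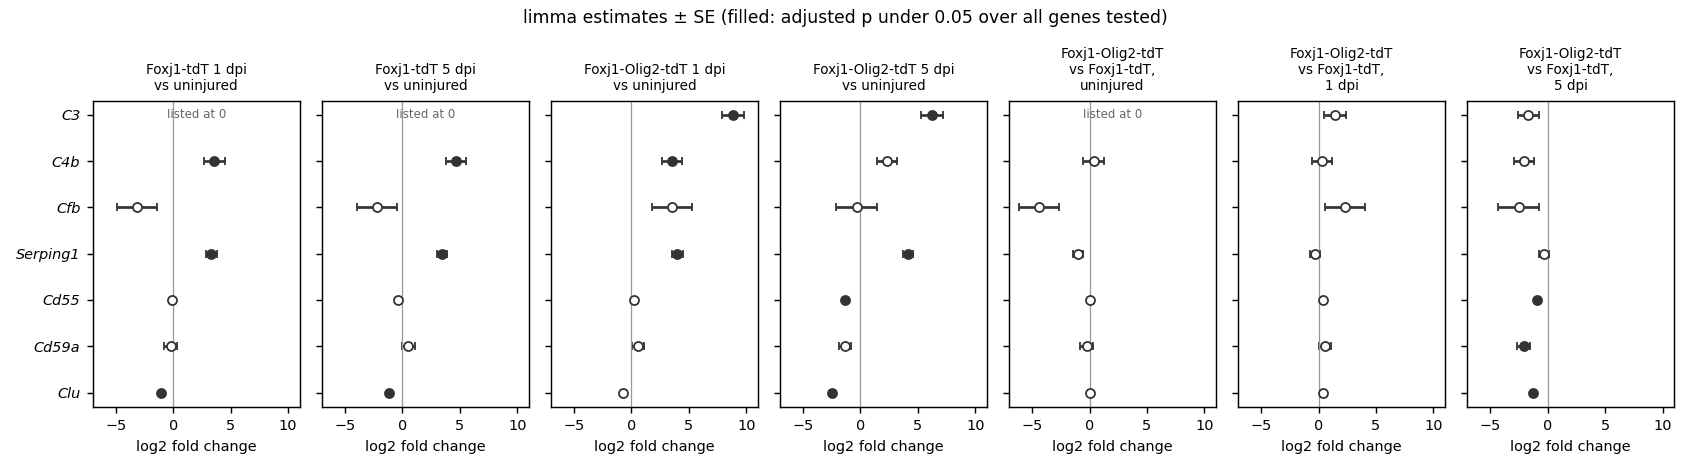
Each panel is 1 comparison, the x axis is the log2 fold change of log2(normalised count + 1) from limma with its SE as a bar, and filled points passed an adjusted p of 0.05 over all genes tested. Where a C3 group was listed at 0 no fold is drawn.

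Other cell types could carry these genes, so their markers were read in the same libraries. The 6 measured microglia markers of 10 listed held 0.00915% to 0.0319% of the sum, with P2ry12 at 0 in 10 of the 12 libraries, and the 3 measured markers of infiltrating myeloid cells held 0.000471% or less. The 5 measured fibroblast markers of 8 listed held 0.106% of the sum in replicate 1 of Foxj1-tdT at 1 dpi and 0.00172% in replicate 2. That gap came from Dcn (13599.8 against 0.5), while Col1a1 (5.6 and 10.8), Col1a2 (242.5 and 203.4), Col3a1 (0 and 0) and Col6a3 (0 and 11.6) were not higher to a like extent. C3 was 976.5 in replicate 1 and 119.2 in replicate 2, and the part of the Dcn difference in it was not tested.

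Of 51 other complement genes on 4 lists, 20 were in the bulk table and 18 were tested. In Foxj1-tdT 3 rose and 5 fell at 1 dpi (27.4% of all genes were called), and 1 rose and 1 fell at 5 dpi (23% of all genes). In Foxj1-Olig2-tdT 2 rose and 1 fell at 1 dpi (8.09% of all genes), and 1 rose and 3 fell at 5 dpi (31.2% of all genes). The protease C1s1, which cleaves C4, was 0 in all 4 uninjured libraries and 19.6 to 305.1 in the 8 injured ones, and was called in each of the 4 comparisons with uninjured cord (adjusted p = 0.00594 to 0.0143). Hc, which encodes complement C5, was 1937.1 and 1098.9 in uninjured Foxj1-Olig2-tdT cells and 55 and 168 at 5 dpi (-3.91 ± 0.51, adjusted p = 0.00031). In Foxj1-tdT Hc was also called lower, at 1 dpi (-1.61 ± 0.51, adjusted p = 0.0414) and 5 dpi (-1.62 ± 0.51, adjusted p = 0.0452). Cd59b, the copy of Cd59a, was 750.7 to 1031.2 before injury and 130.2 and 182.4 in Foxj1-Olig2-tdT at 5 dpi (-2.36 ± 0.30, adjusted p = 0.000274). In Foxj1-tdT Cd59b was called lower at 1 dpi (-1.54 ± 0.30, adjusted p = 0.0048) and was not called at 5 dpi (-0.52 ± 0.30, adjusted p = 0.257). Cr1l, a rodent membrane inhibitor of the convertases, rose by 1.22 ± 0.26 in Foxj1-tdT at 1 dpi (adjusted p = 0.00728). In Foxj1-Olig2-tdT Cr1l was not called at 1 dpi (-0.37 ± 0.26, adjusted p = 0.424). Between genotypes Cr1l was higher in Foxj1-Olig2-tdT before injury (0.99 ± 0.26, adjusted p = 0.047) and at 5 dpi (0.95 ± 0.26, adjusted p = 0.0495). It was not called between genotypes at 1 dpi (-0.60 ± 0.26, adjusted p = 0.291). The receptor C3ar1 stayed at 9.2 or less in every library.

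Across the 12 libraries the log2 values of C3 followed those of Serping1 (Pearson r = 0.916) and C4b (0.884), and Cd55 followed Clu (0.821) and Cd59a (0.719), while Serping1 and Clu ran against each other (-0.725). These are descriptions without a test, since the libraries share the injury and the genotype. The genes most like Clu among 13368 were Eno4 (0.997), Cfap65 (0.994) and Rsph1 (0.994), and Rsph1 is on the ependymal marker list. Those most like C3 were H2-M3 (0.972), Ywhag (0.963) and Pole (0.957), and those most like Serping1 were Uchl1 (0.979), Pole (0.978) and Mamld1 (0.977). Cd55 was nearest to Abhd14a (0.956), C4b to Casp12 (0.943) and Cfb to Zfp953 (0.904).

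The single-cell RNA matrix held 3500 cells under 6 library codes that match no sample label, so values are given per code and no condition is compared. The authors' filtered cell table kept 3285 cells, with 716 to 52590 UMIs each and a median of 5722, and 7 barcodes occurred under more than 1 code. The 3285 cells fell into 15 clusters, clustered without the complement genes. By markers 8 clusters were ependymal-like (2413 cells), 1 was oligodendrocyte progenitor-like (59), 1 mature oligodendrocyte-like (126), 1 cycling cell-like (55), and 4 stayed unnamed (632). Intervals are 95% exact and cover counting error only.

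Clu and Cd55 were high in the ependymal-like and the unnamed clusters and low in both oligodendrocyte clusters. Levels are CPM, the UMIs of a gene over all UMIs of the cells, per 1000000. Clu had 3278 to 6316 CPM over those 8 clusters, 490 (interval 454 to 528) in the mature oligodendrocyte-like and 148 (114 to 190) in the progenitor-like cluster. Cd55 had 115 to 202 CPM in the ependymal-like clusters and 4.22 (1.55 to 9.18) in the mature oligodendrocyte-like cluster. It had no UMI in the 59 progenitor-like cells, where the interval reaches 8.69 CPM. The 4 unnamed clusters had 117 to 191 CPM of Cd55 and 4169 to 4898 of Clu. Cd59a was highest in cluster 7, whose leading genes include Tagln and Acta2, at 131 CPM, against 29.5 to 67.5 in the other ependymal-like clusters. The high level of cluster 7 was present under both codes that supplied most of its cells, at 115 under 018 and 137 under 072.

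C4b had the reverse distribution. It was 467 CPM (432 to 504) in the mature oligodendrocyte-like cluster, where 65.9% of cells had a UMI at a median depth of 9678, and 127 (95.6 to 166) in the progenitor-like cluster. In ependymal-like cells it was 7.25 (5.97 to 8.72), where 3.81% of cells had a UMI at a median depth of 5610. With each cell thinned to 2000 UMIs the share in the mature oligodendrocyte-like cluster was 48%, and in the ependymal-like clusters it was 7.04% or less in each. Both codes that held mature oligodendrocyte-like cells had it there, at 559 under 073 (93 cells) and 125 under 020 (33 cells). In progenitor-like cells it was 69.8 under 073 (35 cells) and 233 under 020 (22 cells), the reverse order. Codes 018 and 072 held 1 progenitor-like cell each. Per code, C4b was 224 under 073, 45 under 020 and 2.82 to 9.01 under the other 4.

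Serping1 was highest in unnamed cluster 2, led by Gfap, S100a6 and Serping1 itself, at 221 CPM (192 to 254) with 68.6% of 121 cells holding a UMI. With each cell thinned to 2000 UMIs the share was 25.8%, and no ependymal-like cluster was above 6.76%. Of the cells of cluster 2, 88 came from code 018 and 30 from code 072, where Serping1 in the cluster was 242 and 93.6. The ependymal-like clusters ranged from 2.22 to 39.8, and no UMI was found in the progenitor-like cells. Per code Serping1 was 54 under 018, 28.2 under 072 and 1.13 to 12.9 under the other 4.

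C3 was scarce in single cells. It had 78 UMIs in 36 of 3285 cells, 3.61 CPM (2.86 to 4.51), and no UMI in either oligodendrocyte cluster. Of the 78 UMIs, 54 were in unnamed clusters (13.9 CPM), where the ependymal markers were also found, and 24 in ependymal-like ones (1.55 CPM). A single cell held 16 of the 21 UMIs under code 073 and another 13 of the 19 under code 020. Cfb had no UMI in any kept cell, where the interval reaches 0.171 CPM. The cells absent from the authors' filtered table (215, of which 176 came from code 020) had 9.34 CPM of C3 and 3676 of the microglial gene C1qa. Their C3 came from 26 UMIs in 13 cells. Code 072 had 1 such cell, and its C3 UMIs were 28 with that cell and 17 without it.

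**Figure D3:**
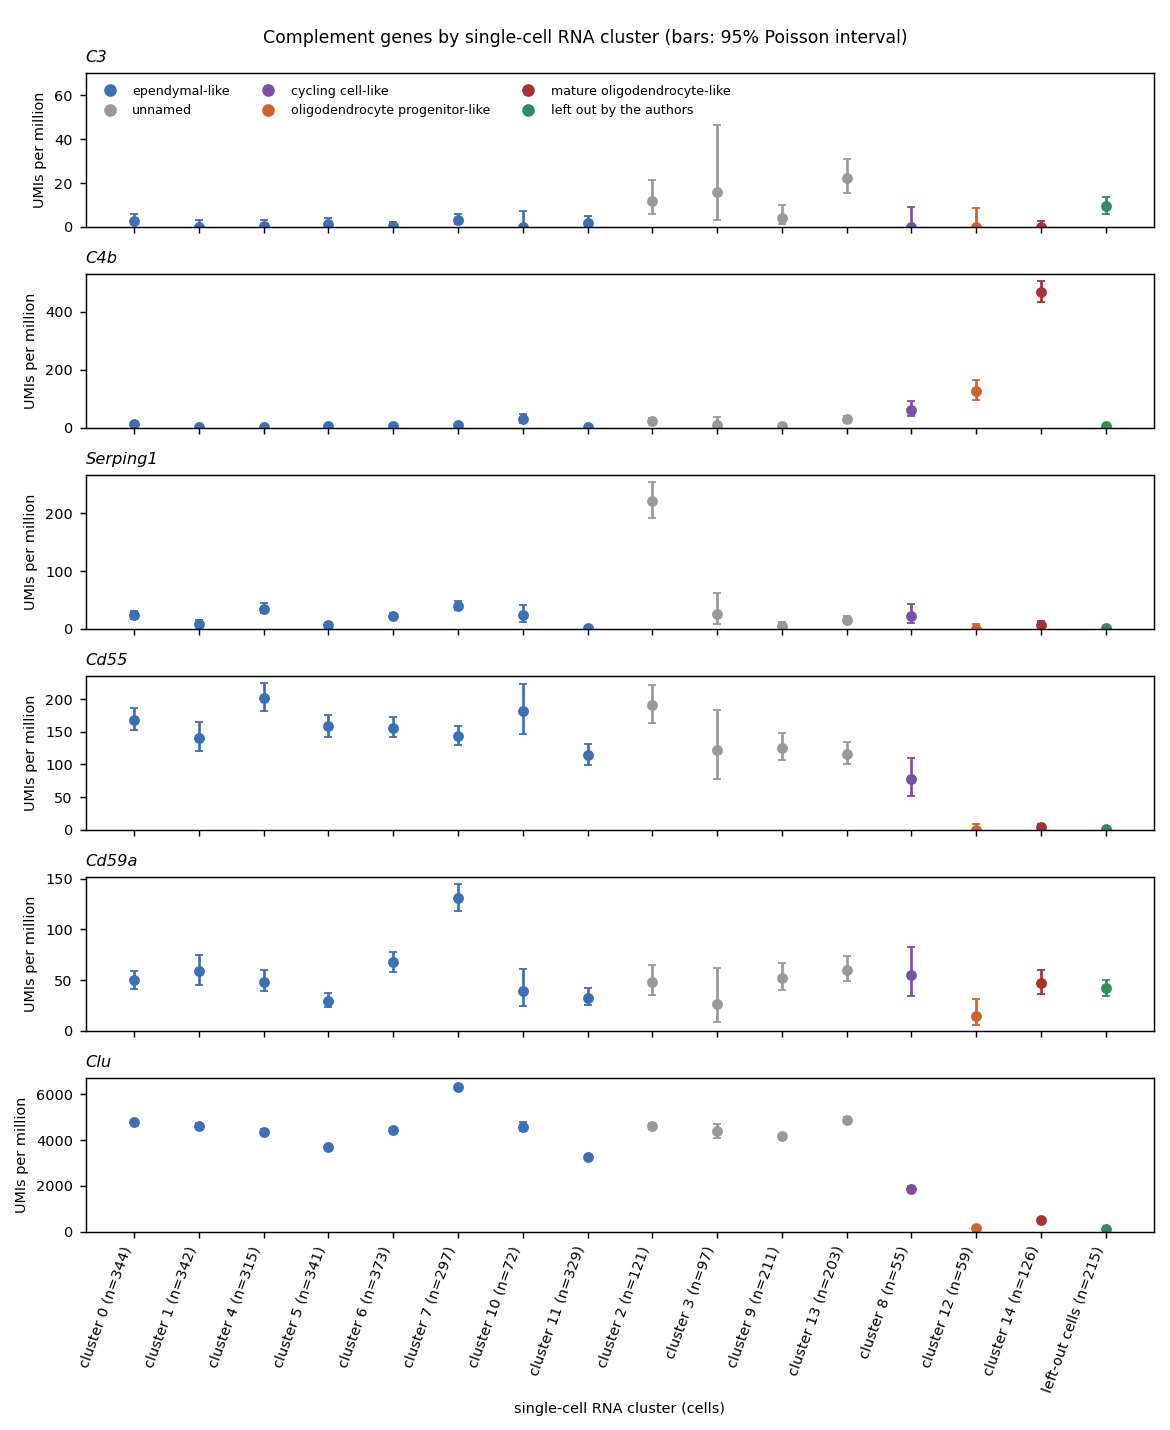
The y axes give UMIs per 1000000 for 6 of the 7 genes (Cfb had none in kept cells), the x axis the 15 clusters and the cells absent from the authors' filtered table, points are values and bars 95% Poisson intervals. C4b peaks in the mature oligodendrocyte-like cluster 14, Serping1 in unnamed cluster 2 and Cd59a in cluster 7, while Cd55 and Clu are near 0 or low in clusters 12 and 14.

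In uninjured cord, single-cell ATAC held 1084 cells in 8 classes named by the authors, of which EP1, EP2 and EP3 (754 cells) had the highest accessibility at the ependymal markers, 1036 to 1215 CPM of cut sites against 291 to 480 in the others. Cut sites near each of the 7 genes are given per 1000000 cut sites of a class (CPM), from 1 sample and with no test.

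Near Cd55 the EP classes had 74 to 89.1 CPM, PER 69 and VEC 52.6, while ACNT1 and ACNT2 had 7.61 and 4.54 and OPC 23.6. The peak at chr1:130461887-130464668, which overlaps the promoter printed above, carried 93.2% of them. Near Cd59a the EP classes had 12.1 to 15.3, VEC 13.1, PER 6.37, OPC 1.97 and the 2 ACNT classes 0 and 2.73, with 77.7% in the peak at chr2:104095487-104096605 over the printed promoter. Pooled EP cells had 79.2 CPM near Cd55 against 22.9 in the rest, and 14.2 against 3.14 near Cd59a. With 1 CPM added to both sides these are ratios of 3.35 and 3.68, and a ratio of at least 2 is one that 8.13% of 15973 genes reached (10.3% were at least 2 times lower). Clu had 115 to 128 in the EP classes and 133 and 161 in the ACNT classes, against 8.76 in VEC, and its pooled ratio of 1.28 on the same scale compares with a median of 0.787 over all genes. With a window of 10 kb Cd59a had 56.1 CPM in pooled EP cells against 34.8 in the rest, with 63.7 in PER and 65.7 in VEC.

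In pooled EP cells fewer cut sites were read near C3, C4b, Cfb and Serping1 than near Cd55, Cd59a and Clu. In the rest C3 had more than Cd59a, at 15.6 CPM against 3.14. C3 had 7.85 to 13.5 CPM in the EP classes and 8.49 to 17.7 elsewhere (pooled 9.65 against 15.6, but 44.7 against 38.8 with a window of 10 kb). Within 2 kb 9.04% of them fell in the peak over its printed promoter at chr17:57228024-57228336, with 79.9% in an intragenic peak. C4b had 39 cut sites in all and Cfb 100, the latter in a peak that also lies within 2 kb of Nelfe. Serping1 had 4.75 to 6.07 in the EP classes and 43.5 (31.2 to 59) in the 40 PER cells.

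**Figure D4:**
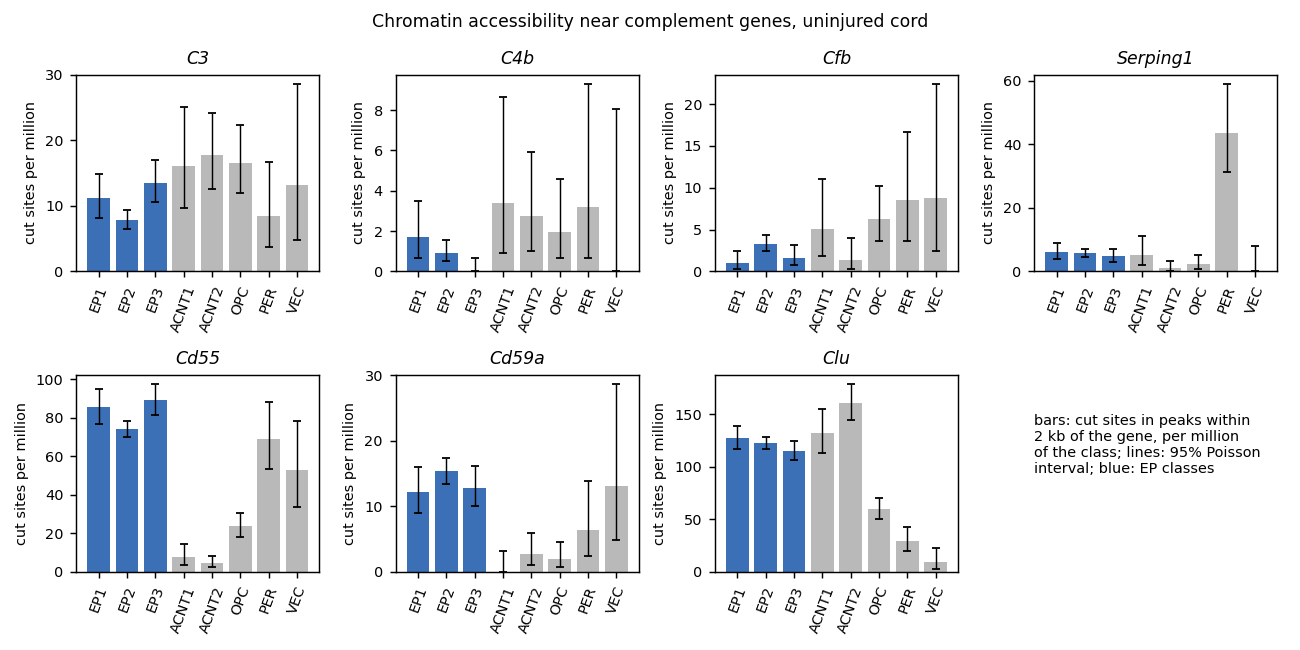
Bars are cut sites in peaks within 2 kb of each gene per 1000000 cut sites of a class (y axis) for the authors' 8 classes (x axis), with 95% Poisson intervals, and blue marks the EP classes. Cd55 and Cd59a are high in the EP classes and low in the ACNT classes, VEC is within the EP range for Cd59a, and Serping1 is highest in PER.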

How the data were processed

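The 12 bulk libraries were read from the authors' deposited table of normalised counts, treated as a signal because its scaling is not given in the sources used here. Per the submitters' processing notes the build was mm10 and Bowtie2, deepTools, SAMtools, Cell Ranger and its ATAC version were used, without roles. Genes at 10 or more in at least 2 libraries (15811 of 16301) were tested on log2(value + 1) with limma 3.58.1 (R 4.3.3, trended variance, all 12 libraries in 1 fit of the 6 group means, Benjamini-Hochberg adjustment within each of 11 comparisons, threshold 0.05). On simulated data for Foxj1-Olig2-tdT at 1 dpi against uninjured, 13.4%, 50.7% and 93.9% of genes changed by 1, 2 and 4 log2 units were recovered over 15811 genes, with 9 false calls.

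The deposited single-cell RNA file holds UMI counts and the single-cell ATAC file counts of cut sites; other columns (barcodes, classes) are the authors' deposited annotations. Clustering used scanpy 1.11.5 with the Leiden method at resolution 1 on 15 nearest neighbours in 30 principal components of 2000 variable genes without the complement genes, and no doublet caller was run. A cluster was named when at least 3 markers of a list were found in 25% of its cells and its leading genes did not go against the list; these limits and the myeloid and bone genes used to withhold a name were set after the clusters were seen. The 3500 cell columns could not be tied to samples. ATAC ratios had 1 CPM added to both sides; ATAC coordinates are the authors', and genes come from RefSeq GRCm38.p6.

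The 7 genes were given by name; the other complement lists and markers were chosen with earlier results of these data known. Named besides the 7 are up to 3 called genes a list with the lowest adjusted p and the genes with the highest correlation among tested genes with a mean of at least 50 in a group; P2ry12, C3ar1 and the fibroblast genes were named after their values were seen. Some genes these rules would name are not reported here. Alternatives were another pseudocount, no filter, other normalisations, a replicate block, leaving out libraries, other cell sets and other peak windows. Same-numbered libraries did not deviate together (correlations from -0.03 to 0.022), so the numbers were not taken as pairs.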

Additional observations from a re-analysis of the deposited data

Results flagged for a closer look

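Clu differed between genotypes in its response at 5 dpi by an interaction of -1.31 log2 units (SE 0.28, adjusted p = 0.0219), with both genotypes lower than uninjured. Cd59b, the copy of Cd59a, differed at 5 dpi by -1.85 (SE 0.43, adjusted p = 0.0301): it was 779.9 and 650.8 in Foxj1-tdT and 130.2 and 182.4 in Foxj1-Olig2-tdT. Vtn, which encodes the terminal complement inhibitor vitronectin, differed at 1 dpi by a fitted 13.89 (SE 2.26, adjusted p = 0.0149), a value set by the pseudocount since both uninjured Foxj1-Olig2-tdT libraries were at 0. Its values were 124.8 and 158.3 before injury and 1.8 and 0 at 1 dpi in Foxj1-tdT, against 0 and 0, then 155.3 and 205.3, in Foxj1-Olig2-tdT.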

How the results depend on the processing

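Of 77 values (7 genes in 11 comparisons) 22 passed the threshold; 16 of these passed under all 18 alternatives, 6 were lost under at least 1, and no called value reversed. Of the 55 values that missed the threshold, 11 passed under at least 1 alternative. The 6 were C4b at 1 dpi in each genotype, Cd59a in both of its calls, Cd55 between genotypes at 5 dpi (lost without replicate 1 of either 5 dpi group) and the Clu interaction at 5 dpi. Leaving out each library in turn, the number of the 7 genes called ran from 0 to 1 for genotype in uninjured cord (Cfb, without Foxj1-Olig2-tdT uninjured replicate 2), from 1 to 4 for genotype at 5 dpi, from 2 to 4 for Foxj1-Olig2-tdT at 1 dpi, from 4 to 6 for that genotype at 5 dpi, from 0 to 1 for the interaction at 1 dpi and from 0 to 3 for that at 5 dpi (0 without either uninjured Foxj1-tdT library or without Foxj1-Olig2-tdT 5 dpi replicate 2, 3 without Foxj1-Olig2-tdT uninjured replicate 2). Counting the uninjured Foxj1-tdT pair as 1 library, an alternative chosen after seeing the data, gave 0 of the 7 genes for the 5 dpi interaction. It lowered the count of all genes called, at 1 and 5 dpi against uninjured, from 4331 to 1755 and from 3642 to 1324 in Foxj1-tdT, at 1 dpi from 1279 to 719 in Foxj1-Olig2-tdT, and from 1 to 5 dpi in Foxj1-tdT from 925 to 411. Between genotypes it lowered that count from 1231 to 235 (uninjured), 291 to 69 (1 dpi) and 1460 to 839 (5 dpi), and for the interactions from 438 to 42 and from 1151 to 224. With a replicate block the counts of the 7 genes were the same except 4 in place of 3 for Foxj1-Olig2-tdT at 1 dpi, where Clu passed, and the all-gene count fell from 438 to 271 for the 1 dpi interaction. Quantile normalisation moved the median of all genes at Foxj1-Olig2-tdT 5 dpi from 0.125 to -0.032 log2 units and kept all 4 calls there. A window of 10 kb took in 25 ATAC peaks in place of 14. The depth of the bulk libraries is unknown, and 2 libraries a group left most changes of 1 log2 unit uncalled on simulated data.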
